A study of Mus musculus with 2 samples.

Results

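The miR-148 and miR-152 family of the mouse consists of 3 miRNA genes, Mir148a, Mir148b and Mir152, whose main mature products carry the same seed. They were taken by gene symbol from the 2202 miRNA genes counted, and each symbol matched 1 gene. The samples were 2 libraries of RNA under 30 bases from gastrocnemius muscle, each from a female B6CASTF1/J mouse aged 10 days, a hybrid of the C57BL/6 and CAST strains. Per the labels, replicates 1 and 2 are biological replicates, and no treatment, genotype or second tissue was compared. Both carry the same donor entry, so that they are separate animals is taken from their replicate numbers and sample descriptions and is an assumption throughout. The p-values between them measure counting error between 2 libraries, with no replicate behind them.

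A miRNA is cut from a hairpin precursor and guides Argonaute to messenger RNAs, mainly through pairing of its seed, bases 2 to 8 from the 5′ end. Members of this family are known to repress the DNA methyltransferase Dnmt1. In muscle cells, miR-148a is known to promote the differentiation of myoblasts, with the kinase Rock1 as a described target. It is also abundant in liver and in some blood cells.

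The mature sequences of the 3′ arm show what joins the genes and what separates them. They are shown with the seed in capitals, from RefSeq (GRCm38.p6).
mmu-miR-148a-3p: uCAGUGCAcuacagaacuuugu
mmu-miR-148b-3p: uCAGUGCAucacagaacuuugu
mmu-miR-152-3p: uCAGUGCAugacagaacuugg
All 3 have the seed CAGUGCA, and no other of the 1738 mature miRNAs in the RefSeq table used here has it at bases 2 to 8. Counted from 1 at the 5′ end, miR-148a-3p and miR-148b-3p differ by C9U and U10C. From miR-148a-3p to miR-152-3p the differences are C9U, U10G and U20G, and from miR-148b-3p to miR-152-3p they are C10G and U20G. No difference lies within the seed, and miR-152-3p is 21 bases long where the others have 22.

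The arms on the 5′ side are less alike. They are shown because the counts per gene do not separate the arms.
mmu-miR-148a-5p: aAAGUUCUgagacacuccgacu
mmu-miR-148b-5p: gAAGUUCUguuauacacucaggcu
mmu-miR-152-5p: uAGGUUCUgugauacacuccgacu
The seed AAGUUCU is shared by miR-148a-5p and miR-148b-5p, and no other mature miRNA of the table has AGGUUCU, the seed of miR-152-5p, at bases 2 to 8. A gene count is the sum of both arms, so the level of a gene is not the level of its CAGUGCA product alone.

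The precursors, with the 3′ arm product in capitals, show how far the hairpins differ outside it.
Mir148a: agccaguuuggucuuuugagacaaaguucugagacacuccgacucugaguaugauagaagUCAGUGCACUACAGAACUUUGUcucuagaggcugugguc
Mir148b: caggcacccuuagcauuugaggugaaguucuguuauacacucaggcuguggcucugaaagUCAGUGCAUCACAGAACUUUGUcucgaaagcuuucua
Mir152: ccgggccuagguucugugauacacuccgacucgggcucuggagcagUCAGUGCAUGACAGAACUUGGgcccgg
Mir148a (ENSMUSG00000065505.1) is a gene of 99 bases at chr6:51269812-51269910 on the minus strand, in build mm10. Mir148b (ENSMUSG00000065560.1) has 97 bases at chr15:103285125-103285221 on the plus strand. Mir152 (ENSMUSG00000065515.1) has 73 bases at chr11:96850393-96850465 on the plus strand, and with 61.6% G and C its precursor exceeds those of Mir148a (45.5%) and Mir148b (45.4%).

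The 3 genes can be counted apart. The longest stretch common to the precursors is 15 bases for Mir148a and Mir148b, 12 for Mir148a and Mir152, and 11 for Mir148b and Mir152. None of the 3 shares a window of 18 bases, on either strand, with any of the other precursors among the 2202 genes. The 3′ arm product of each member has at least 2 mismatches to the precursors of the others and at least 6 to every precursor outside the family. How many mismatches the authors' alignment allowed is not given in the sources used here. Copies outside annotated precursors were not searched.

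Mir152 lies in an intron of Copz2, and Mir148b in an intron of Copz1, on the same strand as its host in each case. Copz1 and Copz2 encode the zeta subunits of coatomer, the coat of vesicles that return from the Golgi to the endoplasmic reticulum. No annotated gene overlaps Mir148a on either strand, and its nearest protein-coding gene, Nfe2l3, is 162.8 kb away. No other miRNA gene lies close to a member, the nearest being Mir6963 at 65.2 kb from Mir148b, Mir8103 at 213.3 kb from Mir152 and Gm22914 at 351.7 kb from Mir148a. These 3 neighbours had mean levels of 0.554, 0.142 and 0 sense reads per 1e6 sense reads on miRNA genes (CPM).

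The 3 loci share a set of related neighbours upstream of the miRNA gene. Gene names with the same stem within 1000 kb of all 3 members included Cbx genes, which here encode forms of heterochromatin protein 1, and Nfe2 family genes, which encode basic leucine zipper transcription factors. Of these, the Nfe2 family gene was the nearer in each case, Nfe2l3 at 162.8 kb from Mir148a, Nfe2 at 26.7 kb from Mir148b and Nfe2l1 at 20.4 kb from Mir152. The Cbx gene was farther away, with Cbx3 at 200.4 kb from Mir148a, Cbx5 at 45.3 kb from Mir148b and Cbx1 at 41.8 kb from Mir152. This is a property of the annotation, not a measurement of these samples.

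**Figure D1:**
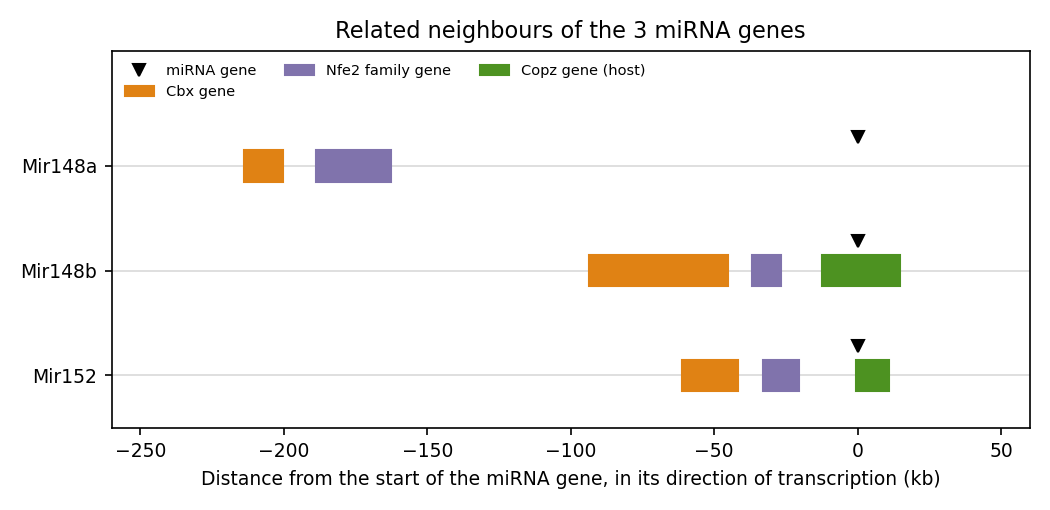
Position of related genes around the 3 miRNA genes: the x axis gives the distance in kb from the start of the miRNA gene along its direction of transcription, and each row is 1 locus. Cbx and Nfe2 family genes lie to the left of, that is upstream of, all 3 miRNA genes, and a Copz gene spans Mir148b and Mir152 but not Mir148a.

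Sense reads on miRNA genes, the base of the CPM, numbered 3510897 in replicate 1 and 3949733 in replicate 2. All 3 genes were detected, that is at 2 CPM or more in both libraries, as were 332 of the 2202 genes. Mir148a and Mir152 were the more abundant members and Mir148b the least abundant. The median of the 332 detected genes was 129.7 CPM, above Mir148b and below the other members.

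Mir148a had 3221 reads in replicate 1 and 2754 in replicate 2. Its level was 917.4 CPM (95% Poisson interval 886.0 to 949.7) in replicate 1 and 697.3 CPM (671.5 to 723.8) in replicate 2, a mean of 807.3 ± 155.7 CPM (SD, n = 2). Replicate 1 was the higher library, and the counting intervals did not overlap. Intervals here cover the counting error of reads only. Molecules were not tagged with identifiers in these counts, so the counting error of molecules is not covered.

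Mir152, whose mature miRNA differs from miR-148a-3p at 3 of 21 compared bases, had 2408 and 2302 reads. Its level was 685.9 CPM (658.7 to 713.8) in replicate 1 and 582.8 CPM (559.3 to 607.1) in replicate 2, a mean of 634.3 ± 72.9 CPM (SD, n = 2). Replicate 1 was again the higher library.

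Mir148b, whose mature miRNA differs from miR-148a-3p at positions 9 and 10, had 267 and 342 reads. Its level was 76.0 CPM (67.2 to 85.7) in replicate 1 and 86.6 CPM (77.7 to 96.3) in replicate 2, a mean of 81.3 ± 7.45 CPM (SD, n = 2). Here replicate 2 was the higher library, and the counting intervals overlapped.

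**Figure D2:**
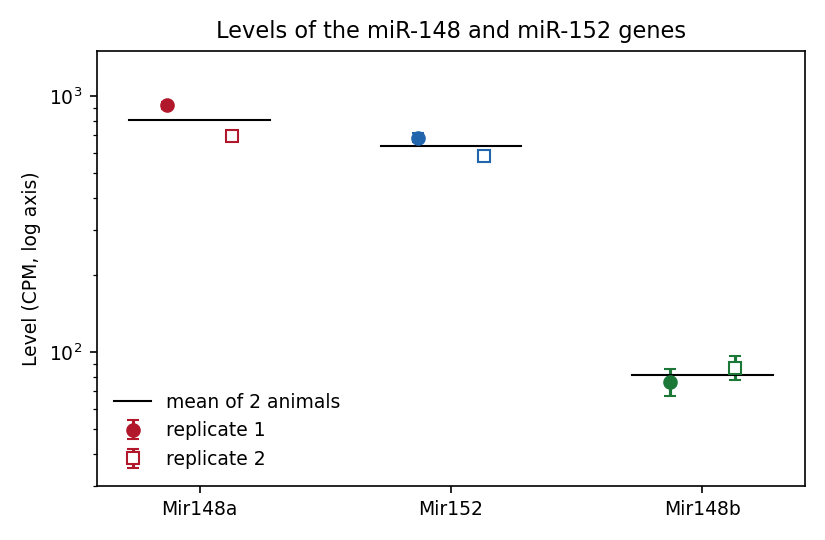
Level of each gene in CPM, on a log axis: filled circles are replicate 1, open squares replicate 2, bars are 95% Poisson intervals of the count and lines the mean of both animals. Mir148a and Mir152 lie between 582.8 and 917.4 CPM and Mir148b lies at 76.0 and 86.6 CPM.

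Among all 2202 genes, Mir148a ranked 88 by mean level, Mir152 ranked 100 and Mir148b ranked 187. By library, the ranks were 85 and 93 for Mir148a, 97 and 102 for Mir152, and 190 and 185 for Mir148b. The order of the members was thus the same in both animals. The ranks cover reads that could be placed at a single site: 42.6% and 46.4% of reads in replicates 1 and 2 aligned to several places and were counted on no gene.

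**Figure D3:**
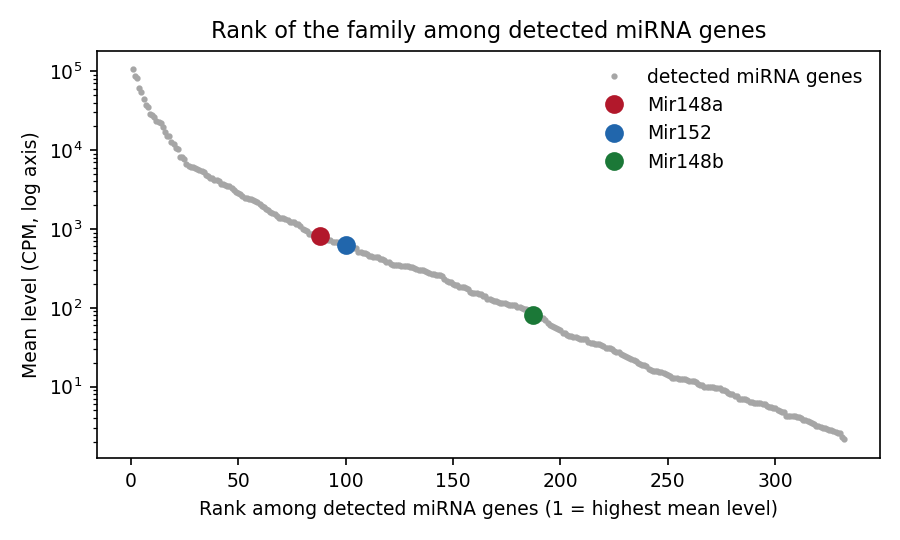
Mean level in CPM, on a log axis, against rank for the 332 detected miRNA genes (grey), with the members in colour. Mir148a and Mir152 sit close together at ranks 88 and 100, and Mir148b sits at rank 187, below the median level.

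The genes with levels most like those of each member were sought outside the family. Likeness was the Euclidean distance in log2 CPM over the 2 libraries, among the 329 detected genes that are not members. With 2 libraries it describes level more than pattern. Nearest to Mir148a were Mir370, Mir92-1 and Mir342, at 854.8, 755.2 and 869.1 CPM on average and at distances of 0.12, 0.14 and 0.16. For Mir152 they were Mir320, Mir455 and Mir181b-2, with means of 653.9, 602.1 and 673.5 CPM. For Mir148b they were Mir7689, Mir340 and Mir1a-2, with means of 80.2, 75.1 and 77.4 CPM. Mir1a-2 and Mir181b-2 share a window of 22 bases with another precursor, so their levels, and with them this likeness, are uncertain. The other genes named in this paragraph were not searched for such windows, apart from the members.

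Together the 3 genes held 0.168% of the sense reads of replicate 1, with a Wilson 95% interval of 0.164% to 0.172%. In replicate 2 they held 0.137% (0.133% to 0.140%), and the mean was 0.152% ± 0.0221 (SD, n = 2). In CPM this was 1679 in replicate 1 and 1367 in replicate 2. The sum was 1.23-fold higher in replicate 1 (95% interval 1.18 to 1.28, counting error only). Mir148a and Mir152 carried this difference, since Mir148b was lower in replicate 1.

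Mir148a supplied 54.6% of the family's reads in the first animal (53.4% to 55.9%, by Wilson's method) and 51.0% in the second (49.7% to 52.4%). For Mir152 the shares were 40.8% (39.6% to 42.1%) and 42.6% (41.3% to 44.0%), and for Mir148b 4.53% (4.03% to 5.09%) and 6.34% (5.72% to 7.02%). The means were 52.8% ± 2.55, 41.7% ± 1.28 and 5.43% ± 1.28 (SD, n = 2). Mir148a and Mir152 thus contributed nearly all reads of the seed family in both animals.

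Ratios between members within a library do not depend on how the library is scaled. Mir148a exceeded Mir148b 12.1-fold in replicate 1 (exact 95% interval 10.6 to 13.7) and 8.05-fold in replicate 2 (7.19 to 9.04). Mir148a exceeded Mir152 1.34-fold (1.27 to 1.41) in replicate 1 and 1.196-fold (1.13 to 1.26) in replicate 2. The ratio of Mir148b to Mir152 was 0.111 (0.0973 to 0.126) and 0.149 (0.132 to 0.167). In each pair the order was the same in 2 of 2 animals. With 2 animals, the smallest two-sided p of an exact sign test is 0.5, so an exact test of the order across animals cannot reach 0.05.

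The order of Mir148a and Mir152 depends on how length is treated. Per base of the annotated gene, Mir152 stood at 8.69 ± 0.998 CPM per base, above Mir148a at 8.16 ± 1.57 and Mir148b at 0.838 ± 0.0768 CPM per base (SD, n = 2). By library, these levels were 9.40 and 7.98 CPM per base for Mir152 and 9.27 and 7.04 for Mir148a. Mir152 was thus the higher within each library, while the ranges across libraries overlap. A read here covers a mature miRNA and not the whole hairpin. Per base of the 3′ arm product, Mir148a stayed above Mir152, by 0.27 on the log2 scale. The efficiency with which each miRNA was ligated and amplified was not measured.

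The 3 ratios between members differed between the libraries by more than counting error. On the log2 scale, the ratio of Mir148a to Mir148b in replicate 2 minus that in replicate 1 was -0.58 (SE 0.12 from the counts, two-sided Fisher's exact test, p = 2.62e-06, adjusted over the 3 pairs p = 7.86e-06). For Mir148b to Mir152 this difference was 0.42 (SE 0.13, exact p = 0.000774, adjusted p = 0.00116). For Mir148a to Mir152 it was the smallest, -0.16 (SE 0.06, exact p = 0.00439, adjusted p = 0.00439). The 3 tests share counts, and each compares 1 animal with 1 other.

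**Figure D4:**
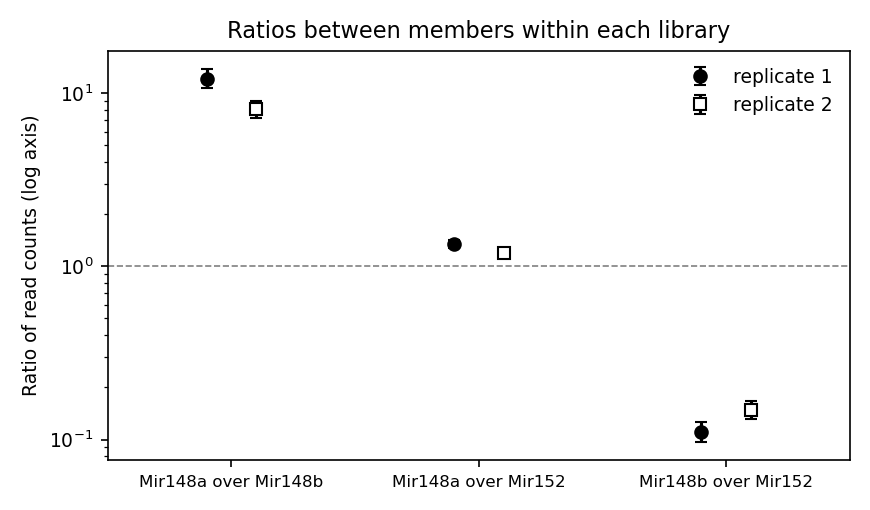
Ratio of read counts between members within each library, on a log axis: filled circles are replicate 1, open squares replicate 2, bars exact 95% binomial intervals, and the dashed line marks equal counts. Mir148a over Mir152 is 1.34 and 1.196, while Mir148a over Mir148b is 12.1 and 8.05.

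Gene by gene, the 2 libraries were compared with an exact binomial test, adjusted by the Benjamini-Hochberg method over the 395 genes with at least 10 reads in both libraries together. Mir148a was 1.32-fold higher in replicate 1 (95% interval 1.25 to 1.38, log2 ratio of replicate 2 over replicate 1 -0.40, exact adjusted p = 3.24e-25). Mir152 was 1.18-fold higher in replicate 1 (1.11 to 1.25, log2 ratio -0.23, exact adjusted p = 1.26e-07). Mir148b was 1.14-fold higher in replicate 2 (0.967 to 1.34, log2 ratio 0.19, exact adjusted p = 0.216), and its interval includes equal levels.

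Thus 2 of 3 members had an adjusted p under 0.05, both lower in replicate 2. The background was 41.3% of all tested genes in either direction and 24.3% lower in replicate 2. The members all had over 100 reads. Of the 251 genes with at least 100 reads in both libraries together, 146 were under 0.05, and 85 of these were lower in replicate 2. No member reached a 2-fold difference as well, which 28 of the 395 tested genes, or 7.09%, did. Of the genes under 0.05, 58.9% were lower in replicate 2 with the totals used here, 46.7% with size factors from DESeq2 and 82.0% when all reads in the file set the scale. The median log2 ratio of all tested genes was -0.03, 0.02 and -0.18 under these scalings. Relative to it, Mir148a stood at -0.37, Mir152 at -0.21 and Mir148b at 0.22. A change of scale shifts every gene and the median alike, so these 3 values are the same under each scaling by construction.

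Against the spread between the animals, the differences of the members were of a common size. The standard deviation was 19.3% of the mean for Mir148a, 11.5% for Mir152 and 9.16% for Mir148b, and the common biological coefficient of variation over 320 genes was 0.188 (edgeR). Counting error alone was 1.91% at most for Mir148a, 2.08% for Mir152 and 6.12% for Mir148b. In absolute log2 ratio, 66.1% of the 395 tested genes lay below Mir148a, 46.8% below Mir152 and 40.0% below Mir148b. With that coefficient of variation as the spread, edgeR's exact test gave an adjusted p of 1 for each member. It gave 10 genes under 0.05, with 30 genes at an unadjusted p under 0.05. The spread was estimated from these same 2 libraries and so contains the differences under test. This test therefore cannot decide whether a member differs between the animals.

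**Figure D5:**
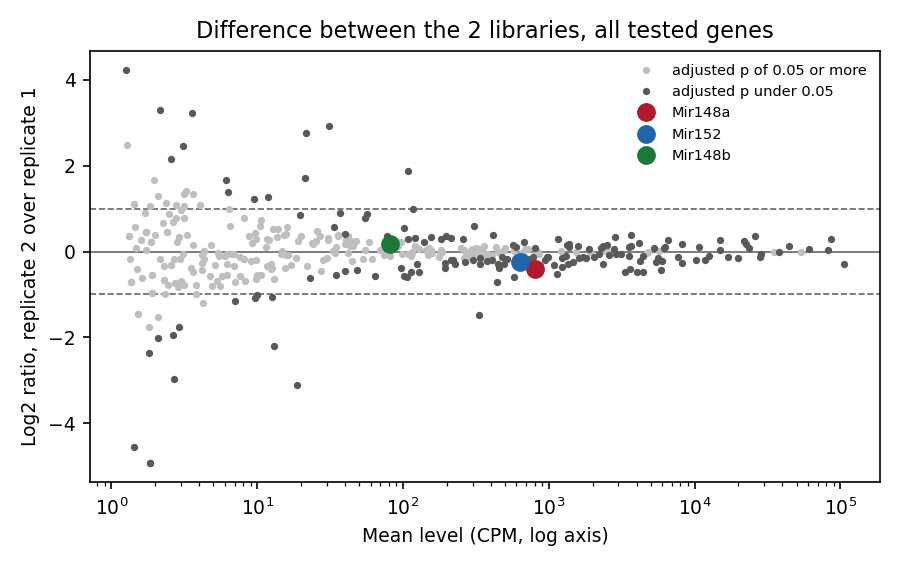
Log2 ratio of replicate 2 over replicate 1 against mean level in CPM (log axis) for the 395 tested genes: dark points have an adjusted p under 0.05, and dashed lines mark 2-fold. Mir148a (-0.40) and Mir152 (-0.23) lie below 0, Mir148b (0.19) above it, and all 3 lie within the dashed lines.

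Markers of other tissues and cell types also differed between the libraries, and their part in the differences of the members was not tested. The liver miRNA Mir122 stood at 491.0 CPM in replicate 1 and 175.7 CPM in replicate 2. The 2 erythroid markers summed to 2066 and 1865 CPM and the 5 leukocyte markers to 1099 and 974.2 CPM, and all 7 were detected. The 7 epithelial markers, 5 of them detected, summed to 197.1 and 125.1 CPM. Mir122 and these sums were higher in replicate 1, as were Mir148a and Mir152. Of 2 erythroid, 5 leukocyte and 6 epithelial markers tested, 1, 3 and 4 were lower in replicate 2 at an adjusted p under 0.05. None was higher at that limit, beside 24.3% of all tested genes lower and 41.3% in either direction. Mir144 (log2 ratio -0.01) and Mir150 (-0.05) differed little. Mir155 (0.04), Mir200a (1.05, from 4 and 10 reads) and Mir141 (0.68, from 2 and 4 reads) were higher in replicate 2.

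Other marker sums were higher in replicate 2: the endothelial Mir126a with 42036 and 46314 CPM, and 6 smooth muscle and stroma markers with 27513 and 32786 CPM, 5 of them detected. The last sum follows Mir143 (22806 and 29190 CPM, the 1 member higher at an adjusted p under 0.05), while Mir214 and Mir199a-2 were lower in replicate 2 (log2 ratios -0.49 and -0.43) and the list's median log2 ratio was -0.09. The 10 neural and glial markers, 3 of them detected, summed to 295.7 and 546.9 CPM, with Mir124a-1, Mir124a-2, Mir124a-3 and Mir9-2 at 0 reads. Nearly all of this sum came from Mir338 (243.0 and 366.9 CPM) and Mir137 (45.9 and 169.6 CPM). Of 4 tested, these 2 were higher in replicate 2 at an adjusted p under 0.05, beside 41.3% of all tested genes in either direction. Mir137 also reached 2-fold, as did 7.09% of all tested genes. Of 9 skeletal muscle markers, 8 were detected, and they summed to 116658 and 96096 CPM, nearly all from Mir206. Mir206 was lower in replicate 2, whereas Mir1a-2, Mir208b and Mir486 were higher at an adjusted p under 0.05, and the list's median log2 ratio was 0.32. In bulk tissue, fewer cells of a type and less RNA per cell cannot be told apart.

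The antisense strand of the 3 genes held 0 reads in both libraries, for which counting limits of 0.854 CPM (replicate 1) and 0.760 CPM (replicate 2) follow, taking 3 counts as the most that a count of 0 allows. Counting without strand gave the same counts for all 3. The reads at these loci therefore came from the annotated strand as far as this depth can show.

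The seed CAGUGCA also begins, 1 base earlier, a group of mature miRNAs of another family. Of 14 mature miRNAs outside the family that hold these bases at any position, 7 hold them from base 1, and 3 of those 7 were detected. They are shown with the shared bases in capitals.
mmu-miR-130a-3p: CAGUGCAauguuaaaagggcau
mmu-miR-130b-3p: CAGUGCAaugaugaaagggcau
mmu-miR-301a-3p: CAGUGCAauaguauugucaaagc
These belong to the miR-130 and miR-301 family, whose own seed starts 1 base later along these letters and is AGUGCAA. A match of letters is a description and says nothing of shared targets in these samples.

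The genes of those 3 miRNAs were together more abundant than the miR-148 and miR-152 genes. Mir130a stood at 5967 and 6309 CPM in replicates 1 and 2, Mir301 at 1538 and 1533 CPM, and Mir130b at 185.7 and 183.1 CPM. Their sum was 7858 ± 236.1 CPM (SD, n = 2), 5.16-fold that of the family. The other 4 genes, Mir130c, Mir6341, Mir6389 and Mir721, had 0 reads in both libraries.

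Grouped by the seed of any arm, 15 seed families had at least 3 detected genes, of 1018 genes whose symbol has a mature sequence in the RefSeq table. The family of CAGUGCA ranked 13 of these 15 by summed mean level, at 1523 CPM, against a median of 8707 CPM. Mir206 (105606 CPM on average), Mir1a-1 and Mir1a-2 were detected but are in none of the 15. The rank and the median therefore hold only for the families grouped here. Reads aligned to several places are also missing from the sums. A gene enters under the seeds of both its arms, so families overlap and sums are not those of a single mature miRNA.

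miRNAs known from myogenic differentiation gave a scale for the family. On a list of 25 genes described as promoting it, 22 were detected and the median level was 40.8 CPM. Of the 25, 15 share a window of 22 bases with another precursor, among them both Mir1a genes, both Mir133a genes, Mir26a-1, Mir26a-2 and all Mir181 genes listed, so their reads may have been set aside and their levels are uncertain. Only Mir206, Mir378a, Mir322, Mir214 and Mir27b stood above Mir148a on this list, at 105606, 85870, 14923, 3341 and 2372 CPM on average. Mir181b-2 (673.5 CPM) stood between Mir148a and Mir152, and 11 of the 25 stood above Mir148b.

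Between the libraries, 4 genes of that list were lower and 7 higher in replicate 2 at an adjusted p under 0.05, of 24 tested, beside 24.3% of all tested genes lower and 41.3% in either direction. None reached 2-fold, and the median log2 ratio was 0.18, beside -0.03 over all tested genes. Mir214, known from mesenchymal cells and from myoblast differentiation, was lower in replicate 2 (log2 ratio -0.49), as were Mir206 (-0.28), Mir181b-2 (-0.28) and Mir503 (-0.23). Mir378a (0.29) and Mir322 (0.27) were among those higher in replicate 2.

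Of 7 genes described as restraining myogenic differentiation, all were detected. Mir23a, at 28409 ± 803.9 CPM, was the only one above Mir148a. It was also the only one with an adjusted p under 0.05 (log2 ratio -0.06), beside 41.3% of all tested genes in either direction. Mir125b-1 stood at 358.6 ± 21.7 CPM, Mir155 at 183.2 ± 3.72 CPM and Mir221 at 80.9 ± 4.45 CPM, the last close to Mir148b. The median log2 ratio was -0.06. Mir125b-1 and Mir125b-2 share a window of 22 bases with another precursor, so their levels are uncertain.

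The miR-29 genes, known to repress the DNA methyltransferases Dnmt3a and Dnmt3b, stood below Mir148a and Mir152. Mir29a reached 106.8 and 133.7 CPM and Mir29c 34.7 and 45.8 CPM in replicates 1 and 2, both higher in replicate 2 at an adjusted p under 0.05 (log2 ratios 0.32 and 0.40). Of all tested genes, 41.3% were under that limit in either direction. Mir29b-1 and Mir29b-2 had 1.87 CPM each. Those copies and Mir29c share a window of 22 bases with another precursor, so their reads may have been set aside.

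Each member has miRNA genes of a Hox cluster on its chromosome. Beside Mir148a, Mir196b in the HoxA cluster, 960.2 kb away, stood at 7730 ± 513.9 CPM. Beside Mir148b, Mir196a-2 and Mir615 in the HoxC cluster stood at 967.7 ± 56.2 and 336.9 ± 49.6 CPM. Beside Mir152, Mir10a and Mir196a-1 in the HoxB cluster stood at 2497 ± 183.5 and 9.83 ± 1.01 CPM. Mir196a-1 and Mir196a-2 share a window of 22 bases with another precursor, so their levels are uncertain. Mir196b, Mir196a-2 and Mir615 were lower and Mir10a higher in replicate 2 at an adjusted p under 0.05, beside 41.3% of all tested genes in either direction and 24.3% lower. None of these 4 genes reached 2-fold, beside 7.09% of all tested genes.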

How the data were processed

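Small RNA libraries of 2 gastrocnemius samples were analysed. The authors deposited raw read counts per miRNA gene, unstranded, sense and antisense, with build mm10 and annotation M21 per the deposited descriptions. No source used here gives the aligner, trimming or mismatch limits. Column 3 was read as sense from its total. Reads aligned to several places were counted on no gene, and summary rows stayed out of totals and tests.

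Symbols and positions came from GENCODE M21. Mature and precursor sequences came from RefSeq (GRCm38.p6), matched by symbol for all 3 members. CPM is per 1e6 sense reads. The libraries were compared across all genes by an exact binomial test with Benjamini-Hochberg adjustment (SciPy 1.17.1), and log2 ratios had 0.5 added to each count. edgeR 4.0.16 gave TMM factors, the coefficient of variation and an alternative exact test, and DESeq2 1.42.0 gave size factors. The binomial test was also run on simulated counts with counting error only, so that run says nothing of spread between animals.

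Some neighbouring genes are not reported here. The members and lists were chosen with earlier results of these data known. Named genes were the members, their hosts and neighbours, genes with the seed, list members, and the 3 detected genes nearest each member in log2 CPM. The 7 genes with the seed letters at base 1 were added after the sequences were seen.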

Additional observations from a re-analysis of the deposited data

How the results depend on the processing

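The denominator set the levels. Per 1e6 of all reads in the file, Mir148a, Mir148b, Mir152 and the family stood at 332.9, 33.2, 260.8 and 626.9. With unstranded counts they stood at 964.6, 97.4, 758.4 and 1820, and without the 5 most abundant genes in the total at 1321, 133.0, 1038 and 2491. TMM and DESeq2 factors moved these levels by less than the SD.

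Per base of the annotated gene, the log2 ratio of Mir148a to Mir152 became -0.10, which reverses their order, and that of Mir148b to Mir152 became -3.37. That change follows from the shorter Mir152 gene. Per base of the 3′ arm product, chosen after seeing the data, no order changed.

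With the common dispersion in edgeR's exact test, the log2 ratios were -0.37 for Mir148a and -0.21 for Mir152, neither under an adjusted p of 0.05. The dispersion came from the same 2 libraries, so this outcome cannot decide whether a member differs. That test left 10 genes under 0.05 where the binomial test gave 163, and all 10 exceeded 2-fold where the binomial test gave 28. A minimum of 100 counts left 6 genes at 2-fold, since it tests fewer genes. The other alternatives changed no direction or call of a member.

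Leaving out 1 animal gave 697.3 to 917.4 CPM for Mir148a, 76.0 to 86.6 for Mir148b, 582.8 to 685.9 for Mir152 and 1367 to 1679 for the family. No paired analysis was possible because both samples belong to 1 group. Of the members, depth limits Mir148b most.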
